A study of Mus musculus with 4 samples.

Results

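Testosterone add-back was compared with the untreated control in mouse Sertoli cells, the somatic cells that nurse developing sperm in the seminiferous tubules, to see which microRNAs (miRNAs) stayed above or below the control level once testosterone was given back under androgen and gonadotropin block. The members are the mouse miRNAs whose GeneName begins with mmu- and that the scanner software called detected on both compared arrays, which were 77 of the 567 mouse miRNAs measured. B6129 male mice aged 5 to 7 weeks formed 3 groups. Sham mice, labelled control, carried an implanted tube and received saline. Flut+Acy mice, labelled flutamide, received the androgen receptor blocker flutamide from the tube and the GnRH antagonist acyline by injection, which blocks gonadotropin release. Flut+Acy+T mice, labelled Testosterone, received both of these and testosterone, so the add-back group still carried both blocking agents. RNA came from Sertoli cells pooled from 6 mice for each group, and was hybridized to 4 arrays, of which Flut+Acy had 2 and each of the other groups 1. Sham and Flut+Acy+T therefore had no replicate. No test was run between them, and every value below is a size.

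A miRNA is cut from a hairpin precursor and guides silencing proteins to messenger RNAs that pair with its seed, bases 2 to 8 from its 5′ end. miRNAs with the same seed form families with overlapping targets. A precursor has 2 arms. The less abundant arm is often degraded and carries a star in these array names. In the testis, miR-34b, miR-34c and a group of X-linked miRNAs are known from germ cells, miR-202 from the somatic cells of the gonad, miR-1 and miR-133 from muscle, and miR-126 from endothelium.

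The sequences of the miRNAs on which the comparison turns are shown first, to let seeds and near-identical pairs be seen. They are RefSeq mature sequences (GRCm38.p6), written 5′ to 3′ in lower case with the seed in capitals. Of the 77 members, 64 had an entry in the table used. The members at least 2-fold above Sham that had an entry were these, together with miR-211 as the near twin of miR-204 and let-7d as the opposite arm of let-7d*:
let-7d*: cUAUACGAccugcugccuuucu
let-7d: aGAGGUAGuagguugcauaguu
miR-204: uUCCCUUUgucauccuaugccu
miR-211: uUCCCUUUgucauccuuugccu
miR-196a: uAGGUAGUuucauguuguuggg
miR-196b: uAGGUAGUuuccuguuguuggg
miR-181b: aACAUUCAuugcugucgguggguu
miR-181d: aACAUUCAuuguugucggugggu
miR-29c*: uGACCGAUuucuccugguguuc
miR-34a: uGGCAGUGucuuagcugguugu
miR-342-3p: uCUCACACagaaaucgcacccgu
miR-126-3p: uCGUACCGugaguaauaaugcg
miR-204 and miR-211 differed at 1 base and miR-196a and miR-196b at 1 base, all outside the seed, while miR-181b and miR-181d differed at 2 bases including a difference in length. How well the probes separate such pairs was not tested. In GRCm38.p6, miR-34a lies at chr4:150068473-150068494 (plus strand), miR-204 at chr19:22750610-22750631 (plus strand), let-7d* at chr13:48536024-48536045 (minus strand) and miR-126-3p at chr2:26591402-26591423 (plus strand), each inside its own miRNA gene. miR-196a has 2 gene copies, on chromosomes 11 and 15, and miR-181b has 2 copies, on chromosomes 1 and 2.

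Of the members at least 2-fold below Sham, these had an entry:
miR-133b: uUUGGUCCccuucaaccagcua
miR-483: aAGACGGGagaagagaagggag
miR-690: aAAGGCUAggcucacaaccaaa
These 5, far above Sham under Flut+Acy and within 2-fold of it with testosterone, are shown for the return toward Sham. The first shares its seed with miR-34a, and the other 4 are X-linked:
miR-34b-5p: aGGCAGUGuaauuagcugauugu
miR-741: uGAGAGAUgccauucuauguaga
miR-465c-3p: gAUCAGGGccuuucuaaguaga
miR-201: uACUCAGUaaggcauuguucuu
miR-880: uACUCCAUccucucugaguaga
Of the 4 X-linked miRNAs, miR-741 lies at chrX:66796809-66796831 and miR-880 at chrX:66800540-66800561, both on the minus strand.

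Most members lay close to Sham after testosterone add-back. Signals are the software's total signal per miRNA, quantile-normalized over the 4 arrays, in intensity units. The difference is log2 of Flut+Acy+T minus log2 of Sham, so 1 is a 2-fold difference. Of 77 members, 59 (76.6%) were within 2-fold, 12 (15.6%) lay higher by 2-fold or more and 6 (7.79%) lay lower by as much. These shares are also the background against which the lists below are read. The median difference was -0.03, with quartiles of -0.33 and 0.26 and a range from -1.95 for miR-133b to 4.34 for let-7d*. The members nearest the 2-fold limits were miR-126-3p inside (1.08) and miR-880 outside (0.87) on the higher side, and miR-690 inside (-1.14) and miR-148a outside (-0.92) on the lower side. Across the members, log2 signals on the compared arrays had a Pearson correlation of 0.775 and a Spearman correlation of 0.853, as a description over miRNAs that share both arrays. The only array-to-array spread in the series was that of the Flut+Acy pair, whose log2 difference had an SD of 0.17 over 76 members, a median size of 0.07 and a largest size of 0.85. All 18 differences past 2-fold exceeded 2 times the scanner's own error, which covers the spots of an array. Whether the Flut+Acy pair came from separate pools or from 1 pool was not given in the sources used here. A spread between separate pools of Sham or Flut+Acy+T mice was not measured.

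**Figure D1:**
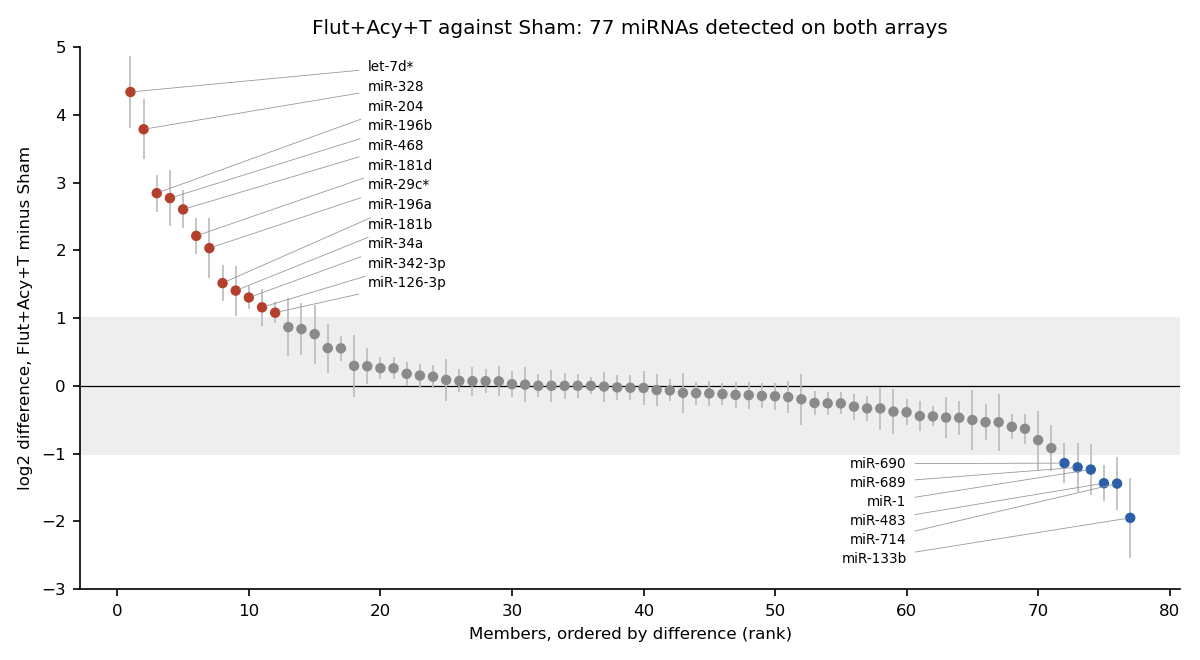
The 77 members ordered by their log2 difference, Flut+Acy+T minus Sham (y axis), with bars for the scanner's error of 1 measurement on each array, which does not cover mice. Red points are the 12 members at least 2-fold higher, blue points the 6 at least 2-fold lower, and the grey band holds the 59 within 2-fold.

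The compared arrays differed in background and in how dim a miRNA could be and still be detected. On Flut+Acy+T the software called 102 mouse miRNAs detected, while Sham had 193 and the Flut+Acy pair 275 and 270. The lowest normalized signal called detected was 103.5 units on Flut+Acy+T and 23.6 on Sham. The 672 negative-control spots had a median processed signal of 97.1 units on Flut+Acy+T (quartiles -50.3 and 1431) and medians of 1.76 to 4.05 on the other arrays. The software flagged 535 spots as nonuniform on Flut+Acy+T and 0, 2 and 4 on the others. A miRNA with a Sham signal under 103.5 units could be a member only by being higher on Flut+Acy+T. Of the 55 such miRNAs detected on Sham, 50 were not detected on Flut+Acy+T and the other 5 were members, all at least 2-fold higher. A 2-fold lower value could be seen only from a Sham signal of at least 2 times that limit. Of the 64 members at that level, 3 (miR-34a, miR-342-3p and miR-126-3p) passed 2-fold upward and 6 downward, with a median of -0.12, and a further 32 miRNAs at that level were not detected on Flut+Acy+T, 30 of them with a bound of at least 2-fold lower. miR-34a, miR-342-3p and miR-126-3p were not 2-fold higher in the authors' own table of quantile-normalized intensities. The other 13 members, with dimmer Sham signals, all lay above Sham, by 0.29 to 4.34, and 9 of them were at least 2-fold higher. None of these 13 could have been a member at 2-fold below Sham, so their shared direction is no result about them.

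**Figure D2:**
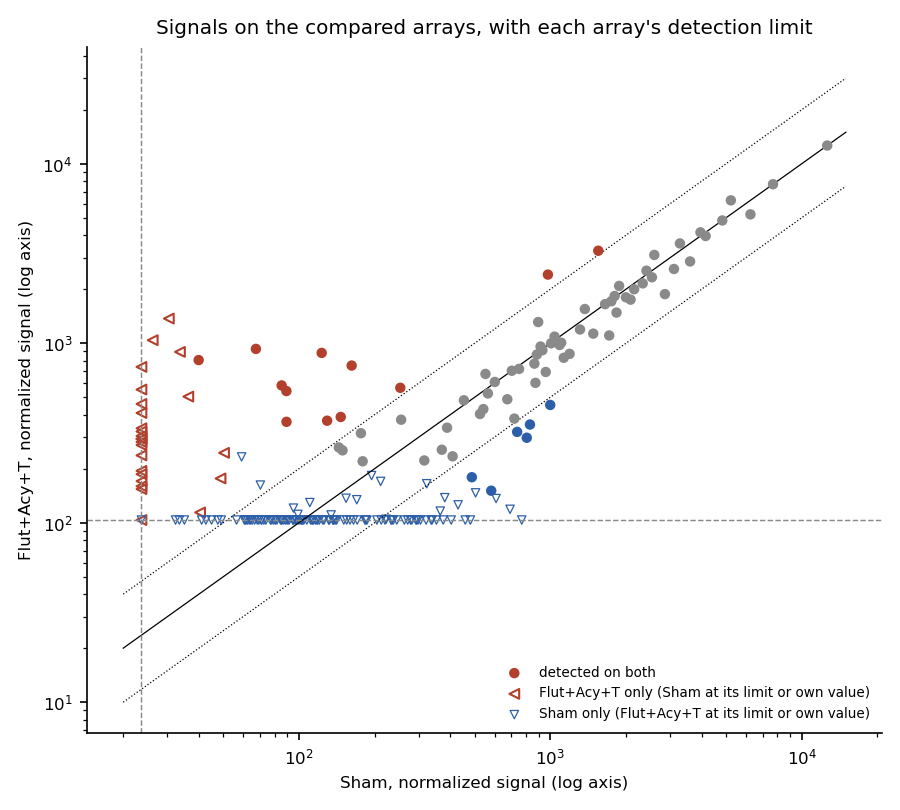
Normalized signal on Flut+Acy+T against Sham, both axes logarithmic. Filled points are the 77 members (red at least 2-fold higher, blue at least 2-fold lower, grey within 2-fold), open triangles the miRNAs detected on only 1 of the compared arrays, dashed lines the lowest signal called detected on each array (23.6 and 103.5 units), and dotted lines 2-fold. The 12 red points lie above the upper dotted line, 9 of them at the left, where no miRNA 2-fold below Sham could be detected on Flut+Acy+T.

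miR-34a, a miRNA induced by p53, stayed above Sham. Its normalized signal was 978.5 units on Sham, 6257 on both Flut+Acy arrays and 2414 with add-back. The add-back array was 2.47-fold above Sham, a log2 difference of 1.30 with a scanner error of 0.17, and its log2 difference from each Flut+Acy array was -1.37. Its 10 spots for the stronger probe on Flut+Acy+T ran from 2975 to 4156 units, with a coefficient of variation (CV) of 10.8% and no spot flagged. miR-126-3p, an endothelial miRNA from an intron of Egfl7, had 1552 units on Sham, 2000 and 1879 under Flut+Acy and 3279 with add-back. The Flut+Acy+T array was the highest of the 4, 2.11-fold above Sham (1.08 ± 0.16, scanner error), with a spot CV of 4.17% and no spot flagged. The blood miRNAs miR-451, miR-223 and miR-142-3p, which share the list of blood and endothelial markers with it, were detected on Sham and not on Flut+Acy+T. Their bounds there were 2.76-fold, 3.14-fold and 2.12-fold lower. These do not cover the errors of their total signals on Flut+Acy+T, 43.2%, 47.55% and 51.8%. They were below Sham under Flut+Acy as well. miR-451 had 380.4 units on Sham, 136.4 and 144.2 under Flut+Acy and an undetected 137.9 with add-back. In that order miR-223 had 365.0, 169.9, 169.9 and 116.1 units, and miR-142-3p 222.3, 146.7, 141.2 and 104.6. Of the 9 miRNAs in that list, 5 were detected on Sham and miR-126-3p alone on Flut+Acy+T, where 4 of the 9 had total signals at or below 0. Normalized signals above 0 in the list summed to 2719 units in Sham and 3682 with add-back. Of these sums miR-126-3p alone made up 1552 and 3279 units. miR-342-3p had 253.1 units on Sham, 504.5 and 525.4 under Flut+Acy and 564.8 with add-back, so the Flut+Acy arrays and the add-back array lay together above Sham (1.16 for Flut+Acy+T against Sham). It was singled out after its values were seen.

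The other 9 members at least 2-fold higher were dim on Sham. miR-204, from an intron of Trpm3, had 123.2 units on Sham, 375.1 and 370.3 under Flut+Acy and 883.9 with add-back (2.84). It was the only member other than miR-34a that was 2-fold or more above Sham under Flut+Acy, on both arrays, and with add-back, and the only one of them whose add-back value lay above Flut+Acy. let-7d* had 39.9 units on Sham, -0.49 and 12.2 on Flut+Acy, where it was detected on 1 of 2 arrays, and 806.2 on Flut+Acy+T (4.34). let-7d, from the other arm of the same precursor, had 2087 units on Sham and 1751 on Flut+Acy+T (-0.25). The arms of the miR-29c precursor were likewise apart, at 2.03 for miR-29c* and -0.13 for miR-29c.

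miR-196a and miR-196b, encoded within the Hox gene clusters, both lay above Sham, at 1.52 and 2.77. miR-196b had 85.4 units on Sham, 14.7 and 26.5 under Flut+Acy and 582.2 with add-back. Their Hox-cluster neighbours miR-10a and miR-10b were at 0.84 and 0.00. miR-181b and miR-181d, known from lymphoid cells among others, were at 1.41 and 2.21. miR-181d had 162.1 units on Sham, 47.6 and 55.1 under Flut+Acy and 751.4 with add-back. The rest of that family on the array, miR-181a and miR-181c, was detected on Sham and not on Flut+Acy+T. miR-181c, the brightest of the family on Sham, had 262.7 units there, 117.8 and 95.1 under Flut+Acy and 12.7 with add-back. Its bound was 2.54-fold lower, and the bound for miR-181a was only 1.32-fold. Neither bound covers the error of the total signal on Flut+Acy+T, 407.3% for miR-181c and 112.1% for miR-181a. miR-328 had 67.4 units on Sham, 30.4 and 43.6 under Flut+Acy and 930.3 with add-back (3.79), and miR-468 had 89.2, 37.9, 31.0 and 541.7 units in the same order (2.60). These dim members thus had their highest signal on Flut+Acy+T. Of these 9, 5 (let-7d*, miR-196b, miR-468, miR-181d and miR-181b) were at least 2-fold below Sham on both Flut+Acy arrays, let-7d* by an undetected value below 0 on 1 of them. All 9 are among the 13 dim members described above, which could not have been members at 2-fold below Sham.

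The spots behind these 9 values were uneven. Of the 12 members at least 2-fold higher, 10 had a spot CV of at least 30% for the stronger probe on Flut+Acy+T, up to 78.3% for miR-196a, and 9 had at least 1 spot flagged as nonuniform, 44 of their 240 spots in all. Among the 59 members within 2-fold, 6 had such a CV, 8 had a flagged spot and the median CV was 7.61%. The 6 lower members had CVs from 4.44% to 14.3% and no flagged spot. On Sham the median CV of the 12 higher members was 21.8%. Of the negative-control spots on Flut+Acy+T, 26.9% were at or above the median spot of let-7d*, 27.2% that of miR-204, 2.83% that of miR-34a and 2.08% that of miR-126-3p. By probe set, 5 of the 7 negative-control sets had medians above 300 units there, up to 2992, while the set with the most spots (288) had -57.4. For the 6 lower members the share of negative-control spots at or above their median spot was 29.6% to 39.0%. The part of this background in the differences was not tested. Without normalization between arrays, 75 of the 77 members were at least 2-fold higher on Flut+Acy+T, with a median of 1.93, so each difference is relative to the other miRNAs of its array.

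**Figure D3:**
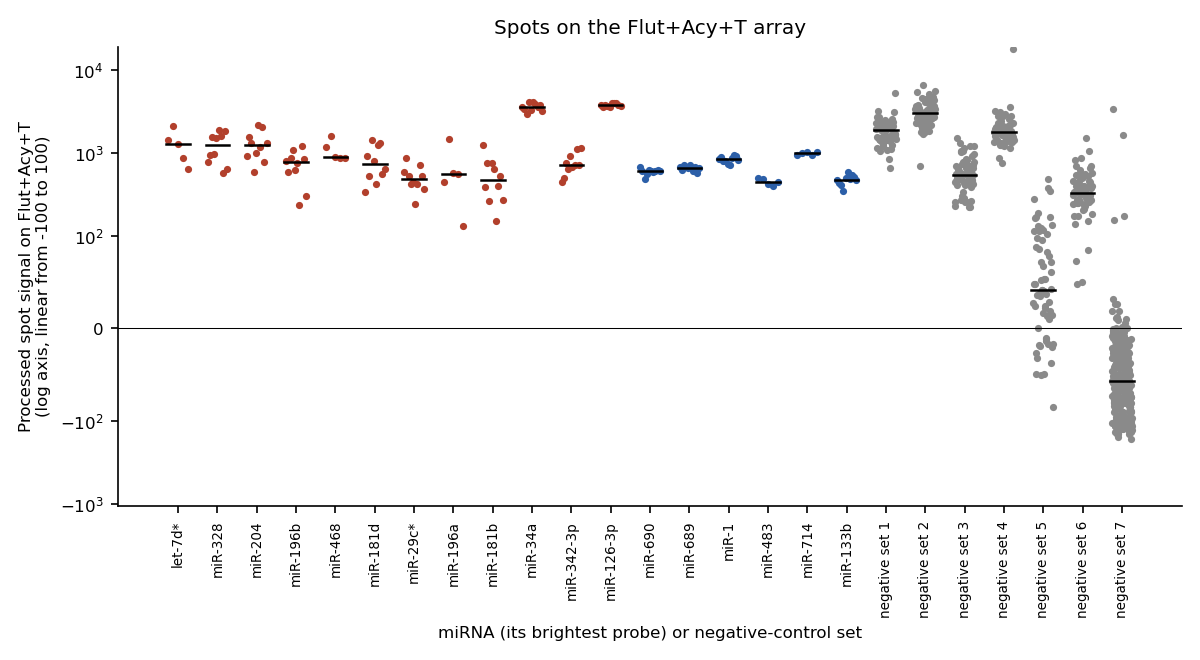
Processed signal of single spots on Flut+Acy+T for the stronger probe of each of the 12 higher (red) and 6 lower (blue) members and for the 7 negative-control sets (grey), with bars at the medians. The y axis is logarithmic beyond 100 units and linear between. The spots of miR-34a and miR-126-3p sit close together near 3564 and 3797 units, those of the other red members spread widely, and 4 grey sets have medians from 546.8 to 2992 units.

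The lower members held muscle miRNAs. miR-133b, a skeletal and heart muscle miRNA, had 582.2 units on Sham, 237.3 on both Flut+Acy arrays and 150.8 with add-back, 3.86-fold below Sham (-1.95, scanner error 0.59). miR-1, made in the same muscles, had 830.3 units on Sham, 322.5 and 335.9 under Flut+Acy and 352.5 with add-back, 2.36-fold below Sham (-1.24). Both were at least 2-fold below Sham on each of the 3 treated arrays, and no other member was. miR-1 lay 0.13 and 0.07 log2 units above the Flut+Acy arrays, less than their SD. Of the 6 miRNAs in the muscle and peritubular list, 5 were detected on Sham and 3 on Flut+Acy+T. miR-143, a smooth muscle miRNA, was at -0.26. miR-133a and miR-145 were detected on Sham and not on Flut+Acy+T, where they were at least 3.41-fold and 2.62-fold lower. The normalized signals above 0 in the list summed to 5142 units in Sham and 3211 with add-back.

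miR-483, from an intron of the growth factor gene Igf2, had 806.2 units on Sham, 403.6 and 408.8 under Flut+Acy and 297.6 with add-back (-1.44). The remaining lower members came from the numbered series miR-680 to miR-721. miR-714 had 487.5 units on Sham, 429.7 on both Flut+Acy arrays and 179.3 with add-back (-1.44), so the add-back array stood apart from the other 3. miR-690 had 999.5 units on Sham, 864.6 and 806.2 under Flut+Acy and 453.3 with add-back (-1.14), and miR-689 had 738.4, 453.3, 481.2 and 320.7 units (-1.20). Of 42 such miRNAs on the array 6 were members, with 3 lower and 3 within 2-fold and a median of -0.80. Next to the 2-fold limit, miR-148a was at -0.92, miR-100 at -0.80, miR-99a at -0.63 and miR-497 at -0.60. All 6 lower members had Sham signals of 487.5 units or more. With add-back they had 150.8 to 453.3 units, and miR-133b was the nearest to the 103.5-unit limit there. Scaled to the 75th percentile of miRNAs detected on all 4 arrays in place of quantile normalization, these 6 lay between -0.94 and -0.28, and none of them was 2-fold lower.

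Of the 77 members, 11 had been at least 2-fold above Sham on both Flut+Acy arrays. With testosterone, 9 of these 11 were within 2-fold of Sham and miR-34a and miR-204 were not. This is near the share over all members, 59 of 77 (76.6%), so nothing is read from the count alone. A miRNA also had to be detected with add-back to be counted. That leaves out miR-743a and others that were 2-fold above Sham on both Flut+Acy arrays and undetected with add-back. The median difference from Sham over the 11 was 2.08 and 1.89 under Flut+Acy and 0.55 with add-back. The add-back value lay between Sham and both Flut+Acy arrays for 8 of the 11. Both differences use the same Sham array, so they are not independent. Fewer cells of a type and less RNA per cell cannot be told apart in these pools.

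The miR-34 family acts in meiosis and in sperm formation, and its members returned toward Sham to unlike degrees. miR-34c had 552.3 units on Sham, 2332 and 2157 under Flut+Acy and 674.7 with add-back (0.29 above Sham). miR-34b-5p, made from the same primary transcript as miR-34c, had 895.2, 3960, 3106 and 1313 units in that order (0.55). miR-34a, made from another gene, stayed at 1.30. All 3 lay between Sham and Flut+Acy. miR-34b-3p, the other arm of miR-34b, had -2.14 units on Sham, 66.7 and 68.3 under Flut+Acy and 322.5 with add-back. miR-449a, of the same family, had 211.4 units on Sham, 703.1 and 582.2 under Flut+Acy and an undetected 169.9 with add-back. Its bound was 1.24-fold lower than Sham, which does not cover the 34.9% error of its total signal on Flut+Acy+T.

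The 4 X-linked testis miRNAs detected with add-back lay slightly above Sham. miR-741 had 179.3 units on Sham, 999.5 on both Flut+Acy arrays and 220.0 with add-back (0.29). miR-465c-3p had 255.1, 1373, 1313 and 375.1 units (0.56), miR-201 149.1, 552.3, 552.3 and 253.1 units (0.76) and miR-880 144.2, 674.7, 703.1 and 262.7 units (0.87). All 4 were far below Flut+Acy, with log2 differences from it of -2.18 to -1.13, and above Sham by less than 2-fold. The scanner error of these differences from Sham was 0.36 to 0.45, so miR-741 lay within it. Of the 23 X-linked testis miRNAs on the array, 11 were detected on Sham, 23 and 21 under Flut+Acy and 4 with add-back, and those 4 are the members. Of the 4, miR-741, miR-201 and miR-880 are among the 13 dim members that could not have been members at 2-fold below Sham. Of the 7 detected on Sham alone, 3 had no bound. The other 4 had bounds near 1, at 1.33-fold lower for miR-743a, 1.14-fold for miR-743b-3p, 1.08-fold for miR-878-3p and 1.04-fold for miR-883a-3p. The software's error of the total signal on Flut+Acy+T was 56.6% for miR-743a, 69.2% for miR-743b-3p and 52.75% for miR-883a-3p. The bounds do not cover this error, so these 4 are not called lower. The 5 members that the array annotation placed on X, which add miR-322 at -0.06, had a median of 0.56 against -0.05 for the other 72. Among those 72, miR-19b (-0.10), miR-92a (0.09) and let-7f (0.07) also have a gene copy on X. The median of the 5 changed sign with the processing, at -0.16 from processed spot signals and -0.15 with scaling to the 75th percentile of all mouse miRNAs. The remaining 3 of the 11 were miR-15b, of the miR-15/16 family, and miR-19b and miR-20a, of the growth-promoting miR-17 to miR-92 cluster. miR-15b had 601.6 units on Sham, 1835 on both Flut+Acy arrays and 608.7 with add-back (0.02). miR-19b was at -0.10 and miR-20a at -0.50, both below Sham after 1.60 and 1.46 (miR-19b) and 1.25 and 1.40 (miR-20a) above it on Flut+Acy. miR-106b, of the same seed family as miR-20a, had 320.7 units on Sham and an undetected 55.1 with add-back. Its bound past 2-fold lower does not cover the 89.3% error of its total signal on Flut+Acy+T.

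In the opposite direction, 9 members had been at least 2-fold below Sham on both Flut+Acy arrays, counting let-7d*, which was not detected on 1 of them. The neuronal miRNA miR-124 had 703.1 units on Sham, 253.1 and 245.1 under Flut+Acy and 703.1 with add-back, and miR-199b* had 914.9, 388.5, 380.4 and 959.4 units. Both were at the Sham level with testosterone, and miR-124 was picked after its values were seen. Of the other 7, miR-1 and miR-133b stayed below Sham and 5 lay at least 2-fold above it (let-7d*, miR-196b, miR-468, miR-181d and miR-181b). Those 5 are among the 13 dim members that could not have been members at 2-fold below Sham, so nothing is read from their direction. Of the 57 members that were not past 2-fold on both Flut+Acy arrays, 48 were within 2-fold on Flut+Acy+T, 5 were higher and 4 lower.

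**Figure D4:**
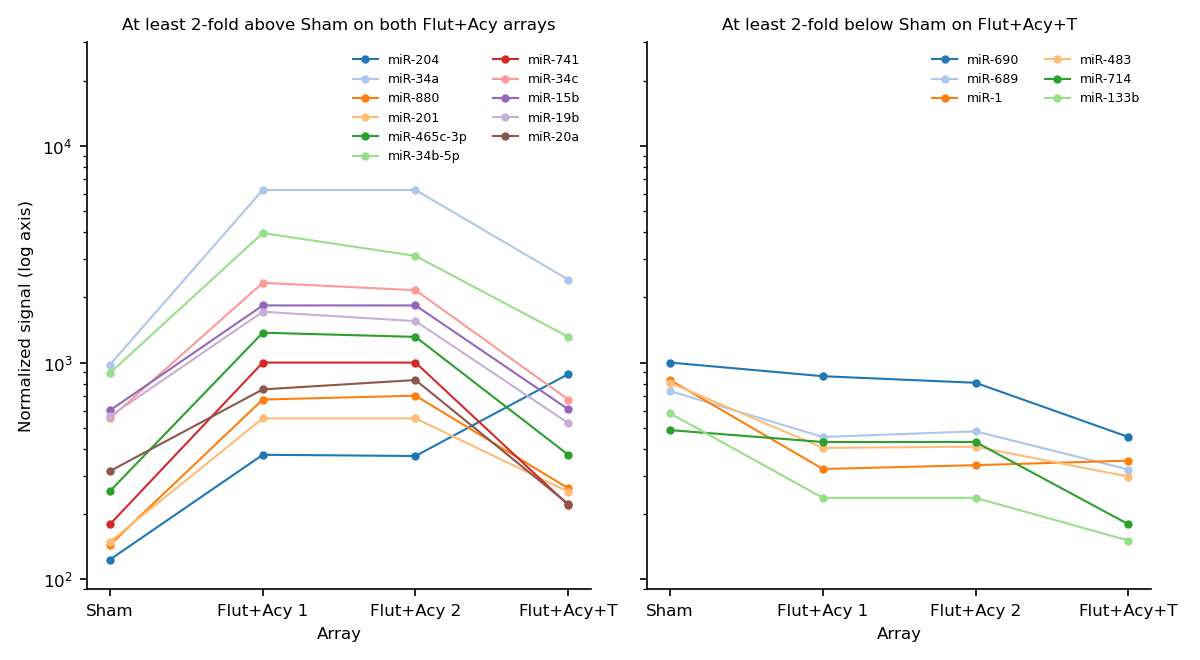
Normalized signal (logarithmic y axis) on the 4 arrays for the 11 members at least 2-fold above Sham on both Flut+Acy arrays (left) and the 6 members at least 2-fold below Sham on Flut+Acy+T (right); each line is 1 miRNA and each point 1 array. On the left, all lines but that of miR-204 come down from Flut+Acy to Flut+Acy+T, and on the right all end below their Sham point.

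Of the families with known roles in growth control and differentiation, the miRNAs detected on both arrays lay near Sham. The let-7 family, which restrains growth genes, had 8 members of 9 on the array, all within 2-fold and between -0.25 (let-7d) and 0.26 (let-7a), with a median of -0.03. The ninth, miR-98, had 234.5 units on Sham, 141.2 and 149.1 under Flut+Acy and was not detected with add-back. Its bound of 2.27-fold lower does not cover the 79.6% error of its total signal on Flut+Acy+T. let-7c had 7696 units on Sham, 5230 on both Flut+Acy arrays and 7696 with add-back. An identical value arises where a miRNA holds the same rank on both arrays, as 5 members did. The miR-15/16 family, which restrains the cell cycle, had 6 members from -0.60 (miR-497) to 0.07 (miR-195), with a median of -0.11. The miR-23, 24 and 27 clusters had all 5 of 5 miRNAs as members, from -0.33 to 0.15. The miR-29 family, which represses collagen genes, had 3 of 3, from -0.13 to 0.13, and the miR-30 family 4 of 5, from -0.38 to 0.07. The remaining miR-30d had 429.7 units on Sham, 293.9 and 315.4 under Flut+Acy and was not detected with add-back. Its bound was 3.42-fold lower, with a 45.1% error of its total signal on Flut+Acy+T. miR-103 and miR-107 were at -0.54 and -0.47, and miR-99a, miR-100, miR-125a-5p and miR-125b-5p from -0.80 to 0.00 with a median of -0.59, while miR-99b was detected on Sham alone. miR-21, a gonadotropin-responsive miRNA of the ovary, was at -0.33. The miR-200 family of epithelia and the miRNA group of the Sfmbt2 intron had 0 members, as did the pluripotency cluster miR-290 to miR-295, the imprinted Dlk1-Dio3 miRNAs and the miR-188 to miR-532 cluster.

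The members were also grouped by seed. The 64 members with a sequence held 14 seeds shared by at least 2 members, which took in 40 members. In 13 of the 14 groups the members spanned less than 1 log2 unit, and the exception was miR-196 (1.25). Over all 77 members, 47 differed from Sham by less than 0.5 log2 units in size. Any 2 of those 47 also span less than 1 log2 unit, so the count of narrow groups is no result about seeds. In 11 groups no member was past 2-fold. In 2 groups, miR-181 (seed ACAUUCA) and miR-196 (AGGUAGU), both members were at least 2-fold higher, and in the miR-34 group (GGCAGUG) miR-34a alone was. The miR-181 and miR-196 members had Sham signals too dim to be members at 2-fold below Sham, so nothing is read from their shared direction. miR-181c had a bound of 2.54-fold lower, which does not cover the error of its signal. Members of a seed group also share most of their other bases, so these values are not independent. GC content of the mature sequence did not order the differences, with a Pearson correlation of 0.02 and a Spearman correlation of -0.05 over the 64, again as a description.

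**Figure D5:**
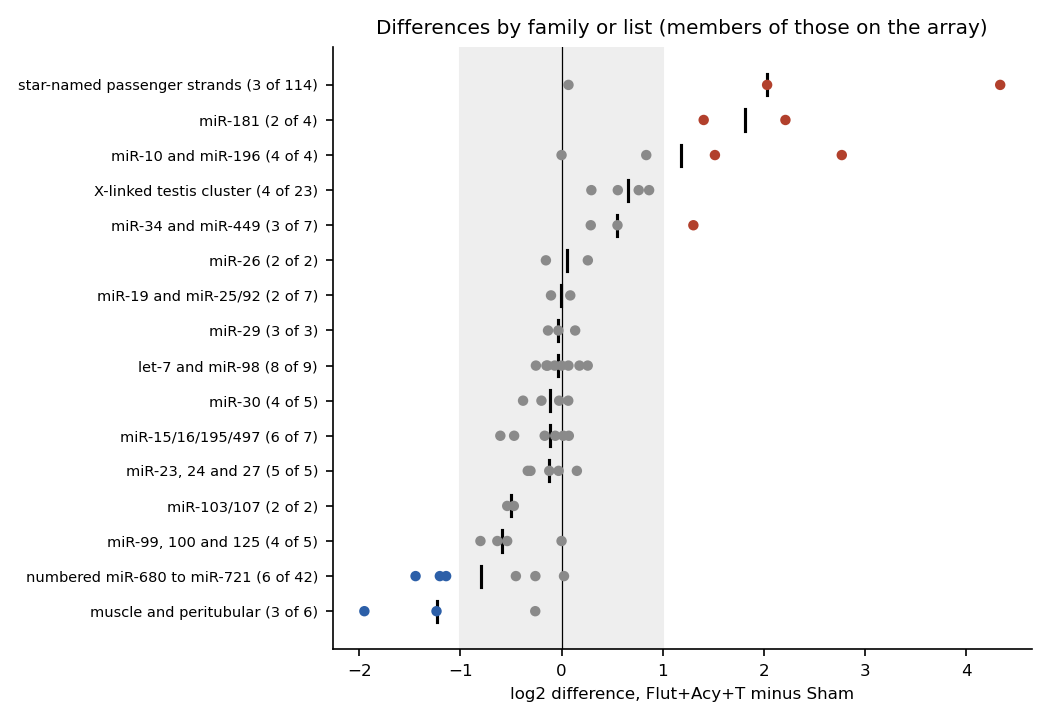
log2 difference, Flut+Acy+T minus Sham (x axis), of each member by family or list, with the number of members of those on the array in brackets, black bars at the list medians and the 2-fold range in grey. let-7, miR-15/16, miR-23/24/27, miR-29 and miR-30 sit near 0, muscle and numbered miRNAs to the left, and miR-181, miR-196 and star-named strands to the right. miRNAs detected on 1 array alone, such as miR-98, miR-30d and miR-181c, are not drawn.

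Beyond the members, 25 miRNAs were detected on Flut+Acy+T and not on Sham, and 116 on Sham and not on Flut+Acy+T. For these only bounds can be given, taken against the higher of the undetected value and the lowest signal called detected on that array. Such a bound does not cover the error of the signals. Some undetected values on Flut+Acy+T, such as 183.2 units for miR-669c, lay above the lowest detected signal there. Over the 218 miRNAs detected on either array, by value or bound, 37 (17.0%) lay higher by at least 2-fold and 36 (16.5%) lower. All 25 seen on Flut+Acy+T alone are among the 37. The detection limits of 103.5 units on Flut+Acy+T and 23.6 on Sham set this direction, so it is no result about them. The largest bound among the 25 was that of miR-211, whose sequence differs from that of miR-204 at 1 base. It had 30.4 units on Sham, 9.66 and 26.2 under Flut+Acy and 1373 with add-back, a bound of 45.2-fold higher. The next bounds were 39.7-fold for miR-335-3p, 31.2-fold for miR-99b*, 26.6-fold for miR-294, which marks pluripotent cells, and 23.4-fold for miR-154. These bounds do not cover the background of Flut+Acy+T either. There, 27.2% of negative-control spots were at or above the median spot of miR-211. For miR-335-3p, miR-99b*, miR-294 and miR-154 the share was 24.55% to 36.01%. Of the 20 spots of miR-211 on Flut+Acy+T, 11 were flagged as nonuniform.

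Star-named strands made up 14 of these 25, against 114 of the 567 on the array. Among them were let-7b*, let-7c-1*, let-7c-2*, let-7g* and miR-29a*, while let-7b, let-7c, let-7g and miR-29a were at -0.07, 0.00, -0.15 and 0.13. In all, 17 star-named strands were detected with add-back, 13 in Sham and 24 and 27 under Flut+Acy. Of the 25, 15 were detected on neither Flut+Acy array, 24 had a spot CV of at least 30% and 23 at least 1 spot flagged as nonuniform. Their total signals before normalization ran from 238.4 to 1738 units.

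On the other side, 30 of the 116 miRNAs seen on Sham alone had a bound of at least 2-fold lower on Flut+Acy+T, and all 30 were detected on both Flut+Acy arrays. miR-494 had the largest, with 770.3 units on Sham, 408.8 and 403.6 under Flut+Acy and 102.3 with add-back, at least 7.44-fold lower. miR-214 was at least 5.83-fold lower, miR-101a at least 4.65-fold, miR-671-5p at least 4.46-fold (spot CV on Sham 88.3%) and miR-152 at least 4.43-fold. miR-202-3p, the gonadal marker, had 403.6 units on Sham, 320.7 and 304.5 under Flut+Acy and 5.93 with add-back, at least 3.90-fold lower. It was thus detected on 3 of 4 arrays, but its spots for the stronger probe on Sham were uneven, from 48.0 to 600.8 units with a median of 72.2 and a CV of 121%. The hypoxia-induced miR-210 was at least 3.62-fold lower, miR-151-5p at least 3.44-fold, miR-30d at least 3.42-fold and the muscle miR-133a at least 3.41-fold. These are the 10 largest bounds in order, chosen after their values were seen. They do not cover the errors of the total signals on Flut+Acy+T, such as 52.8% for miR-494 and 47.1% for miR-214. For 51 of the 116 no bound could be given, because the Sham value lay under the Flut+Acy+T limit or under the Flut+Acy+T value itself.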

How the data were processed

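Total RNA of purified Sertoli cells was measured on 4 single-colour Agilent mouse miRNA arrays on 1 slide and in 1 scan, with a median of 20 spots per miRNA. The deposited scanner files, made by the authors with Feature Extraction 9.5.3.1, hold linear intensities not normalized between arrays: signals of single spots before and after background subtraction, and a total signal, its error and a detection call per miRNA. The authors also deposited a table of quantile-normalized intensities (made in MATLAB) with column medians of 2.37 (Sham), 2.74 and 2.94 (Flut+Acy) and 3.08 (Flut+Acy+T); how spots were combined there was not given in the sources used here, so it served as an alternative only. It is linear and uncentred.

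Groups came from the labels. Quantile normalization was run on the linear total signals of the 567 mouse miRNAs over all 4 arrays (Python 3.11.15, NumPy 2.4.6, pandas 2.3.3) and converted to log2, with nothing added and no floor. Members were called detected in Sham and with add-back. With 1 array a group no test was run, and the number of arrays limits the precision. The error of a difference combines the software's errors of both total signals. Bounds use the higher of an undetected value and the lowest normalized signal called detected on that array, and do not cover the error of the signals. Sequences were matched by name and arm. The normalization code was tested on simulated positive signals without raised background or uneven spots. That check does not cover the conditions of the Flut+Acy+T array.

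Named miRNAs are the 10 members with the largest and the 10 with the smallest difference, members of the lists of families, clusters and cell types, and miRNAs detected on Flut+Acy+T alone. Any other is marked in the text as picked with its values known. The members and lists were chosen with earlier results of these data known, and 1 list (miR-328, miR-468, miR-135b, miR-18a* and miR-335-3p) came from the study's selection on these arrays; its 2 members lay at 3.79 and 2.60. miR-342 was taken out of the Dlk1-Dio3 list after its values were seen, since its locus lies outside that imprinted region. The alternatives were other scalings, no normalization, spot-level summaries, normexp background correction (limma 3.58.1, R 4.3.3, offset 50), other filters and thresholds, 32 units added, and leaving out each Flut+Acy array. Viral miRNAs were left out.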

Additional observations from a re-analysis of the deposited data

Results flagged for a closer look

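The negative-control spots gave signal on Flut+Acy+T. These spots carry probes with no mouse miRNA target and entered no comparison. Their median processed signal was 97.1 units there, while Sham had 1.76 and the Flut+Acy pair 1.91 and 4.05. Its part in the differences between Flut+Acy+T and Sham was not tested.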

How the results depend on the processing

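No paired analysis was possible because no test was run and the compared groups have 1 array each. Sizes are thus set beside each other by setting. The median log2 difference over members (-0.03) came to -1.88 with scaling to the 75th percentile of all mouse miRNAs, 1.93 without normalization, 2.13 with no detection filter and -0.49 in the authors' value table, and stayed within 0.17 of the main value, the SD of the Flut+Acy pair, under the other 13 alternatives. The 12 members at least 2-fold higher became 7 with that 75th percentile scaling, 75 without normalization, 48 with detection on at least 1 array, 394 with no filter and 7 at a 3-fold threshold. They became 2 among members with a spot CV under 30% on Flut+Acy+T (miR-34a and miR-126-3p) and 3 among members with Sham signals of at least 2 times the Flut+Acy+T limit, both chosen after seeing the data. The count was 9 to 16 under the other 12. The 6 members at least 2-fold lower became 1 with the 75th percentile of miRNAs detected on all arrays, 61 with that of all mouse miRNAs, 0 without normalization, 36 with detection on at least 1 array, 36 with no filter, 24 in the authors' value table, 10 at a 1.5-fold threshold and 1 at a 3-fold threshold. With detection on 1 array or no filter, undetected values stand at the array's lowest detected signal, which is higher on Flut+Acy+T, so those counts follow from the floors.

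The 5 lists of at least 2 members with a median of at least 1 in size became 14 with scaling to the 75th percentile of all mouse miRNAs and 17 without normalization. The median of the X-linked members (0.56) came to 1.78 and -0.15 with the 75th percentiles over miRNAs detected on all arrays and over all mouse miRNAs, 3.66 without normalization, -0.16 from processed spot signals, 0.11 from these without flagged spots, 0.81 with normexp and 0.091 in the authors' value table. Of the 20 miRNAs with the largest and smallest differences, those past 2-fold changed sign in these cases. Without normalization miR-133b came to 0.93, miR-714 to 1.59, miR-483 to 1.17, miR-1 to 1.16, miR-689 to 1.34, miR-690 to 1.02 and the median of the muscle list to 1.16, all still below the members' median of 1.93 there. With scaling to the 75th percentile of all mouse miRNAs miR-34a came to -0.46, above the members' median of -1.88 there. In the authors' value table miR-34a was at 0.97, miR-181b at 0.65 and miR-1 at -0.72. Of the 12 higher members, 8 were still 2-fold higher there, and miR-34a, miR-342-3p, miR-126-3p and miR-181b were not. With normexp miR-714 was at -0.69 and miR-483 at -0.62. miR-181b was at 0.63 from processed spot signals, 0.57 from these without flagged spots, 0.95 with normexp and 0.62 with the 75th percentile of all mouse miRNAs. miR-196a was at 0.85 with normexp and 0.83 with that percentile. Leaving out either Flut+Acy array from the normalization changed no sign among the 20. GC content kept a correlation between -0.03 and 0.05 under all 13 alternatives. The cause of these shifts was not tested.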
